A study of Mus musculus with 8 samples.

Results

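Macrophages (Mϕ) release growth factors that act on the fibroblasts, epithelium and vessels of a healing tissue. The mRNAs of 10 such factors were followed here: Inhba, Edn1, Areg, Hbegf, Vegfa, Pdgfa, Pdgfb, Igf1, Hgf and Fgf2. They were taken by name, with earlier results of these data known, and all 10 were found among the 55359 genes listed. All 10 were also among the 16309 genes tested, those whose normalized counts averaged 10 or more. Total RNA was sequenced in bone-marrow-derived Mϕ (BMDMs) of adult male and female wildtype C57BL/6 mice, grown with M-CSF (20 ng/mL) and GM-CSF (20 ng/mL). In 4 groups of 2 samples, naïve BMDMs were left alone (Ctrl) or received LPS (100 ng/mL) with IFNγ (100 U/mL) for 6 h (LPS), and efferocytic BMDMs were left without (Eff) or received the same stimulus (LPSEff). Efferocytic BMDMs had been kept for 16 h with apoptotic NIH-3T3 CA cells, at a stated ratio of 1:5 and with the dimerizer present, and were washed before stimulation. Whether naïve BMDMs also received the dimerizer is not given in the sources used here, so that co-culture and dimerizer cannot be told apart. NIH-3T3 CA is a mouse fibroblast line that dies when 10 nM of a dimerizer activates the caspase-8 domain it carries, so that fibroblast RNA left in the Mϕ aligns to the same genome. After co-culture, cells carrying CD45, a surface protein of leukocytes, were collected on magnetic beads. Neither the labels nor the methods say that samples 1 and 2 of a group came from separate animals, so p-values measure the spread between samples, which may be technical.

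These factors work by short routes between cells. Activin A, a dimer of the protein that Inhba encodes, and the endothelin-1 encoded by Edn1 are secreted and act through serine/threonine kinase receptors and G protein-coupled receptors, respectively. The amphiregulin of Areg and the HB-EGF of Hbegf are made as membrane proteins, are cut loose by the protease ADAM17 and bind receptors of the EGF receptor family. VEGF-A drives vessel growth, the PDGF chains of Pdgfa and Pdgfb drive fibroblasts and pericytes, and IGF-1, HGF and FGF2 promote growth and survival of many cell types, each through a receptor tyrosine kinase. In Mϕ, several of these genes are known to respond to bacterial products, and IGF-1 is known as a factor of alternatively activated Mϕ.

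The promoters of 3 members that rose with LPS/IFNγ are shown first, as the positions of their motifs are compared next. Each run holds the 250 bases before the start of the gene's principal transcript in GENCODE, on its own strand in GRCm39, with matches to known motifs in capitals.
Inhba, chr13:16188733-16188982, plus strand: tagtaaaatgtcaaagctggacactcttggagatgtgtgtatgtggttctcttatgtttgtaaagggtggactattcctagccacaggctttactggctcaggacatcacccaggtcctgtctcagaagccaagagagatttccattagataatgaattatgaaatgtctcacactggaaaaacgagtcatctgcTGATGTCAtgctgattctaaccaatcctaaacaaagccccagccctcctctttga
Areg, chr5:91287201-91287450, plus strand: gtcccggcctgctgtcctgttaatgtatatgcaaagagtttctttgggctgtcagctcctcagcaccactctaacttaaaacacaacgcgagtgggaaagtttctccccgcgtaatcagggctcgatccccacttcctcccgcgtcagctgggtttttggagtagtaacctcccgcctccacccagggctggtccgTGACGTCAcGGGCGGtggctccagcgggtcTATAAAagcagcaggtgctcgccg
Vegfa, chr17:46343310-46343559, minus strand: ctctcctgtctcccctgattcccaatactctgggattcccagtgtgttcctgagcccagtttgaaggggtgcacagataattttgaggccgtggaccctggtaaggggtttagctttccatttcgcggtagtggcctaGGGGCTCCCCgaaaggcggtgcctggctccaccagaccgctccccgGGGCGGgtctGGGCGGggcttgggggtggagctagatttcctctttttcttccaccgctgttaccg

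Inhba and Areg each held a match to TGANGTCA, the form of a cAMP response element, at nearly the same place, 55 to 48 bases before the start of Inhba (TGATGTCA) and 54 to 47 bases before that of Areg (TGACGTCA). No other member held this motif, and 5.28% of the 12498 promoters of tested protein-coding genes did. The motif was chosen after these letters had been seen. Areg also held a TATA box (TATAAA, 24 to 19 bases before the start, in 7.5% of promoters) and a GC box (GGGCGG, 45 to 40 bases before it, in 49.3%). Vegfa held GC boxes at 66 to 61 and at 56 to 51 bases and an NF-κB type match 112 to 103 bases before the start, the latter a motif found in 8.55% of promoters. Over the 10 members, a GC box was found in 5, an NF-κB type match in 2 (Vegfa and Pdgfa), a TATA box in 2 (Areg and Pdgfb), the core of a hypoxia response element (ACGTG, in 21% of promoters) in 1 (Fgf2) and an AP-1 site (TGANTCA, in 4.62%) in 0. All motifs were searched on both strands, and a match describes letters only. RefSeq places the starts of Areg and Vegfa 7 and 6 bases downstream of those used here. For Inhba no RefSeq start was matched to the bases shown. The Inhba start used (chr13:16188983) lies inside the gene's span, which begins at chr13:16186373. The place of its motif relative to that of Areg rests on this start alone.

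The values are normalized counts, that is, the reads of a gene divided by a size factor for its sample. Recovered reads ranged from 3481288 to 12020918 per sample, so that 3 reads were worth 1.73 to 5.71 normalized counts. A gene was called where limma gave an adjusted p under 0.05 over all tested genes, and an exact permutation of 2 against 2 samples could not go below p = 0.333. Markers of the labelled cell type were present, as the summed level of 12 Mϕ markers lay between 111277 and 167509 normalized counts in every sample. Of 7 T-cell and innate lymphoid markers, Cd3e, Cd3d and Cd3g reached at most 6.47. The whole list summed to 57.1 and 137 in Ctrl and to 256 and 329 in LPS. Of its 3 tested genes, 2 were called higher in LPS (Cd247 and Lck), beside 12.4% of all genes tested. The part of such cells in the results was not tested. The 25 fibroblast markers summed to 638 and 674 in Ctrl and 4522 and 2249 in LPS, against 3015 and 6203 in Eff and 10406 and 9105 in LPSEff. Lox, a collagen crosslinking enzyme, made up most of the sum in LPS, and the other 24 markers summed to 901 and 914 there.

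**Figure D1:**
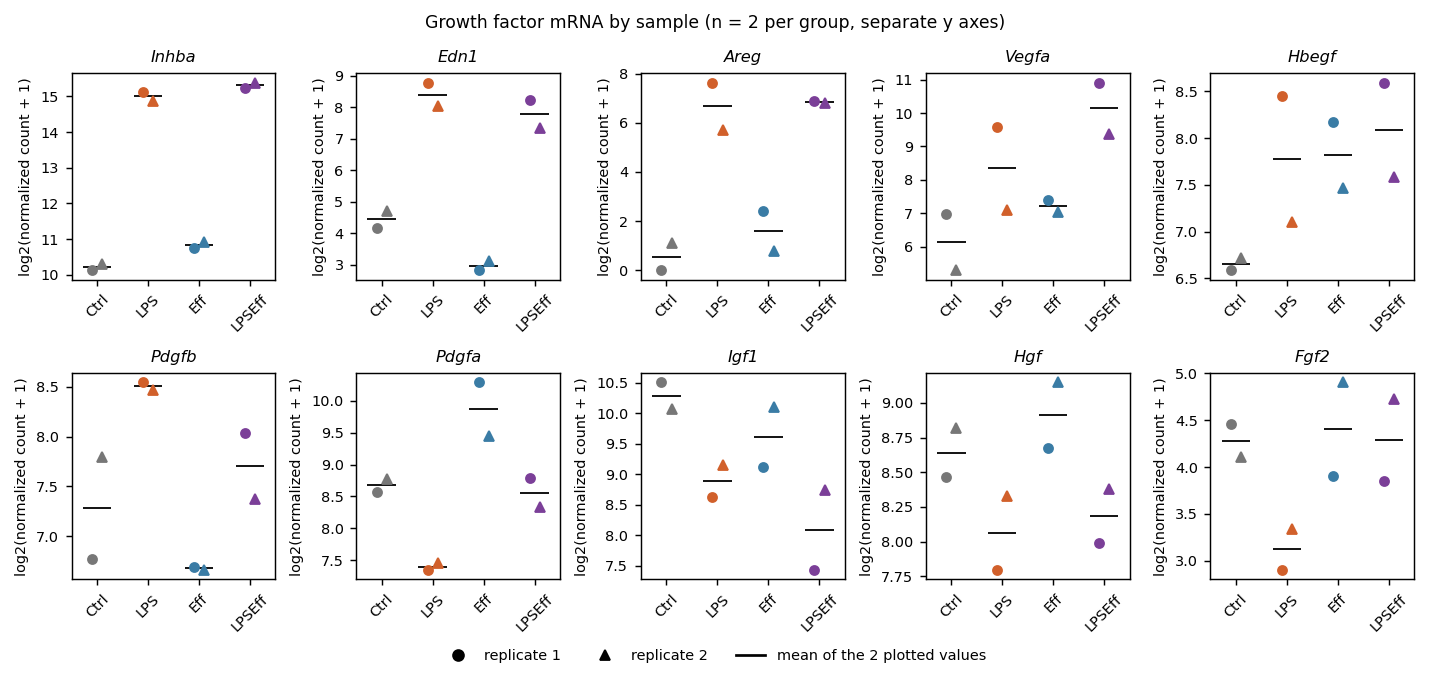
Normalized counts of the 10 growth factors as log2(value + 1) in each of the 8 samples (circles, replicate 1; triangles, replicate 2; bars, mean of the 2 plotted values; y axes differ between panels). Inhba, Edn1 and Areg form a low pair and a high pair of groups according to LPS/IFNγ, whereas Pdgfa is highest in Eff and lowest in LPS.

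Of the 10 growth factors, 5 were called between LPS and Ctrl, beside 24.0% of all genes tested. Higher were 4 (Inhba, Edn1, Areg and Pdgfb; background 12.4%) and lower was 1 (Pdgfa; background 11.6%). In efferocytic BMDMs, 5 were called between LPSEff and Eff, beside 19.7% of all genes. There Inhba, Edn1, Areg and Vegfa were higher (background 10.7%) and Pdgfa was lower (background 8.95%). The median log2 fold change of the 10 was 1.17 between LPS and Ctrl and 0.65 between LPSEff and Eff, against -0.01 and 0.01 over all genes tested. For these comparisons, the share of all genes whose groups did not overlap was not counted. A lack of overlap with stimulation thus describes the samples only.

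Inhba rose with LPS/IFNγ in both contexts, and in stimulated BMDMs it had the highest normalized counts of the 10. Ctrl held 1122 and 1271 normalized counts, LPS 35808 and 30162, Eff 1737 and 1958, and LPSEff 38893 and 42767. The stimulated and unstimulated samples did not overlap, and the ratio of group means was 27.6 in naïve and 22.1 in efferocytic BMDMs. The log2 fold changes were 4.78 (SE 0.20, limma adjusted p = 9.5e-06) and 4.47 (adjusted p = 1.05e-05), with a call under all 20 alternatives in each case. Both Eff samples lay above both Ctrl samples and both LPSEff samples above both LPS samples. These differences were small, 0.63 on the log2 scale (95% interval 0.17 to 1.08, adjusted p = 0.496) and 0.31 (-0.14 to 0.77, adjusted p = 0.679), and neither was called.

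Fst and Id1, genes tied to activin and to the related BMP branch, also changed with the stimulus. Fst, which encodes the activin-binding inhibitor follistatin, was at 24.8 and 48.0 normalized counts in Ctrl and 1207 and 1157 in LPS, against 155 and 81.2 in Eff and 2077 and 1670 in LPSEff. Fst thus was higher in every stimulated sample, with log2 fold changes of 5.06 (adjusted p = 9.43e-05) between LPS and Ctrl and 4.04 (adjusted p = 0.000252) between LPSEff and Eff, under all alternatives. Id1, a target of the related BMP branch that encodes an inhibitor of differentiation, went the other way. Its level was 1344 and 1404 in Ctrl and 162 and 102 in LPS, against 2086 and 1380 in Eff and 127 and 133 in LPSEff. Its log2 fold changes were -3.41 (adjusted p = 0.000137) and -3.70 (adjusted p = 8.27e-05), also called under all alternatives.

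Edn1, the precursor of the vasoconstrictor endothelin-1, rose with LPS/IFNγ from low levels. Ctrl held 17.1 and 25.4 normalized counts and LPS 441 and 261. Eff held 6.13 and 7.76, from 7 and 11 reads, and LPSEff 301 and 161. The log2 fold change was 3.96 (adjusted p = 0.000435) in naïve and 4.81 (adjusted p = 0.000165) in efferocytic BMDMs, both called under all 20 alternatives. Without stimulation both Eff samples lay below both Ctrl samples, at a log2 fold change of -1.47 (95% interval -2.41 to -0.53) and an adjusted p of 0.382. With stimulation LPSEff and LPS overlapped.

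Areg was almost silent without LPS/IFNγ. Its reads numbered 0 and 2 in Ctrl and 5 and 1 in Eff, against 153 and 51 in LPS and 149 and 88 in LPSEff. In normalized counts, Ctrl held 0 and 1.16, Eff 4.38 and 0.706, LPS 198 and 51.8, and LPSEff 118 and 112. Stimulated samples were thus set apart from unstimulated ones in either context, while LPSEff fell within the range of LPS. From the summed reads, LPS exceeded Ctrl by a ratio of 131 (95% interval from counting 35.8 to 1087) and LPSEff exceeded Eff by 49.3 (22.3 to 136), intervals that cover counting error only. The limma calls (log2 fold changes of 6.12, adjusted p = 0.00128, and 5.26, adjusted p = 0.00307) rest on few reads on the low side, and under the alternatives these fold changes ran from 4.27 to 7.27 and from 4.03 to 6.08.

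Ereg, which encodes epiregulin, a sister ligand of amphiregulin for the same receptors, was also nearly absent from Ctrl, with 1.90 and 1.73 normalized counts. LPS held 435 and 282 and LPSEff 640 and 920, with 19.3 and 98.1 in Eff. The calls with stimulation (log2 fold changes of 6.96, adjusted p = 0.000265, and 4.10, adjusted p = 0.00351) held under all alternatives. Ereg was higher in both Eff samples than in both Ctrl samples, by a ratio of 35.5 from 161 against 4 summed reads (13.6 to 132), at an adjusted p of 0.0676. Rhbdf2, which encodes a partner that ADAM17 needs to reach the cell surface, went from 851 and 925 in Ctrl to 2985 and 2440 in LPS and from 1289 and 857 in Eff to 3468 and 2552 in LPSEff. The log2 fold change was 1.60 in naïve BMDMs (adjusted p = 0.00299), and both comparisons (adjusted p = 0.00478 in efferocytic BMDMs) were called under all alternatives.

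Hbegf behaved unlike Areg, its relative. Ctrl held 95.2 and 104 normalized counts, LPS 348 and 136, Eff 288 and 176, and LPSEff 386 and 190. Ctrl was the lowest group, and the other 3 groups overlapped each other. Both LPS samples and both Eff samples lay above both Ctrl samples, at log2 fold changes of 1.12 (adjusted p = 0.141) and 1.17 (adjusted p = 0.773). In efferocytic BMDMs the difference with stimulation was 0.26 on the log2 scale (95% interval -0.86 to 1.38, adjusted p = 0.768). Without LPS replicate 2, the difference between LPS and Ctrl was called at 1.79 (adjusted p = 0.0333), and DESeq2 called it as well (adjusted p = 0.0346).

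**Figure D2:**
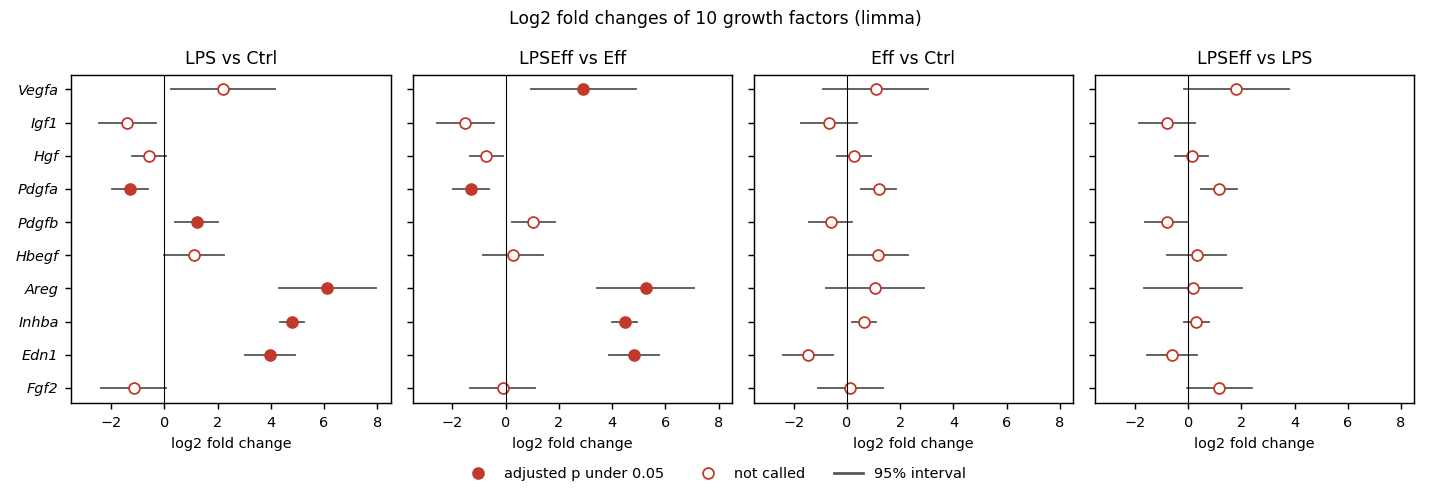
Log2 fold changes of the 10 growth factors in 4 comparisons (limma; lines, 95% intervals; filled circles, adjusted p under 0.05). Filled circles appear in both comparisons with LPS/IFNγ, for 5 genes each, and in neither comparison of efferocytic with naïve BMDMs, although the intervals of Pdgfa lie above 0 in both.

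Vegfa rose with LPS/IFNγ in efferocytic BMDMs, with a wide spread between samples of a group. Ctrl held 126 and 38.2 normalized counts, LPS 766 and 136, Eff 169 and 131, and LPSEff 1929 and 661. Each stimulated pair lay above its unstimulated pair, and the highest of all samples was LPSEff replicate 1. In efferocytic BMDMs the log2 fold change of 2.92 was called (adjusted p = 0.0466), whereas in naïve BMDMs that of 2.20 was not (95% interval 0.23 to 4.17, adjusted p = 0.103). The difference between these fold changes was itself not called (0.72, SE 1.21, adjusted p = 1.00). The call in efferocytic BMDMs was lost without Ctrl replicate 2 (adjusted p = 0.0503), Eff replicate 1 (0.126), Eff replicate 2 (0.170), LPSEff replicate 1 (0.240) or LPSEff replicate 2 (0.0536). It was also lost with quantile normalization (0.0506) and equal totals (0.0707). In naïve BMDMs a call arose without LPS replicate 2 (log2 fold change 3.44, adjusted p = 0.0213). Between LPSEff and LPS the log2 fold change was 1.80 (95% interval -0.17 to 3.77, adjusted p = 0.542), and LPS replicate 1 exceeded LPSEff replicate 2.

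Vegfc, the VEGF of lymphatic vessels, was at 5.71 and 15.6 normalized counts in Ctrl and 169 and 77.2 in LPS, against 13.1 and 8.47 in Eff and 165 and 107 in LPSEff. Its log2 fold changes with stimulation were 3.45 (adjusted p = 0.00341) and 3.53 (adjusted p = 0.00354), and both were called under all alternatives. Vegfc was thus at a like level in stimulated BMDMs of either context.

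Pdgfa and Pdgfb, the PDGF genes among the members, moved in opposite directions. Pdgfa, which encodes the PDGF-A chain, was at 381 and 439 normalized counts in Ctrl and 162 and 174 in LPS, against 1250 and 694 in Eff and 439 and 322 in LPSEff. The 2 LPS samples were the lowest of the 8 and the 2 Eff samples the highest, while LPSEff replicate 1 reached the level of Ctrl replicate 2. Pdgfa fell with LPS/IFNγ by 1.28 on the log2 scale in naïve BMDMs (SE 0.29, adjusted p = 0.0156) and by 1.31 in efferocytic BMDMs (adjusted p = 0.0163). The call in naïve BMDMs was lost without Ctrl replicate 1 (adjusted p = 0.0590), Ctrl replicate 2 (0.0909) or LPS replicate 1 (0.0609). The call in efferocytic BMDMs was lost without Eff replicate 1 (0.0992) or LPSEff replicate 2 (0.0941).

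Pdgfa was also the member with the lowest adjusted p in both comparisons of efferocytic with naïve BMDMs. Both Eff samples exceeded both Ctrl samples, with a ratio of means of 2.37, a log2 fold change of 1.19 (95% interval 0.51 to 1.86) and an adjusted p of 0.295. Both LPSEff samples exceeded both LPS samples, with a ratio of 2.27, a log2 fold change of 1.16 (0.49 to 1.84) and an adjusted p of 0.172. On the recovered reads DESeq2 called Pdgfa in both comparisons (adjusted p = 0.0229 and 0.0377), and edgeR in neither. A transcript on the opposite strand that overlaps Pdgfa, 6330403L08Rik, had its group means in the same order, with 150 and 87.3 in Ctrl and 87.9 and 31.5 in LPS, against 434 and 164 in Eff and 139 and 54.6 in LPSEff. The authors counted with the default mode of htseq-count, which separates strands, and the part of overlapping reads in Pdgfa was not tested.

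Pdgfb, which encodes the PDGF-B chain, was higher with LPS/IFNγ. Ctrl held 109 and 221 normalized counts, LPS 372 and 353, Eff 103 and 100.2, and LPSEff 261 and 165. Both samples of each stimulated group lay above its unstimulated pair, and both samples of each efferocytic group lay below its naïve pair. The log2 fold change was 1.22 between LPS and Ctrl (adjusted p = 0.0377) and 1.03 between LPSEff and Eff (adjusted p = 0.0790). The call in naïve BMDMs was lost without Ctrl replicate 1 (log2 fold change 0.71, adjusted p = 0.203), LPS replicate 1 (0.122), LPS replicate 2 (0.0961), Eff replicate 1 (0.0563) or Eff replicate 2 (0.0568). It was also lost with only both groups in the fit (0.0627) and with equal totals (0.108). In efferocytic BMDMs a call arose without Ctrl replicate 1 (adjusted p = 0.0390) or Ctrl replicate 2 (0.0408). Between efferocytic and naïve BMDMs the log2 fold changes were -0.61 (95% interval -1.42 to 0.20) and -0.80 (-1.61 to 0.01), with adjusted p of 0.982 and 0.490.

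The PDGF receptors differed in which comparison they moved. Pdgfrb, the receptor of the B chain, was at 15.2 and 11.6 normalized counts in Ctrl and 246 and 245 in LPS, against 19.3 and 38.1 in Eff and 82.3 and 157 in LPSEff. It rose with stimulation by a log2 fold change of 4.11 in naïve (adjusted p = 0.000418) and 2.03 in efferocytic BMDMs (adjusted p = 0.0118), the latter lost without Eff replicate 1 (0.0752) or LPSEff replicate 2 (0.0756). Pdgfra, the receptor of both chains and a gene typical of fibroblasts, was at 24.8 and 13.3 in Ctrl and 14.2 and 19.3 in LPS, against 112 and 258 in Eff and 412 and 367 in LPSEff. Pdgfra was thus higher in all efferocytic samples, by a log2 fold change of 3.16 without (adjusted p = 0.0425) and 4.47 with stimulation (adjusted p = 0.00971). The first of these calls held in 11 of 20 alternatives and was lost without Ctrl replicate 1 (0.179), Ctrl replicate 2 (0.170), LPS replicate 2 (0.0536), Eff replicate 2 (0.267), LPSEff replicate 1 (0.114) or LPSEff replicate 2 (0.118). The other was lost without LPSEff replicate 1 (0.128) or LPSEff replicate 2 (0.109). Plat encodes the tissue plasminogen activator, which activates a PDGF ligand other than the A and B chains. Plat stood at 1.90 and 8.67 in Ctrl against 118 and 167 in LPS, and at 11.4 and 29.6 in Eff against 160 and 159 in LPSEff. Its log2 fold changes were 4.73 (adjusted p = 0.00130) and 3.04 (adjusted p = 0.0110), and the latter was lost without Eff replicate 1 (0.0705), LPSEff replicate 1 (0.0608) or LPSEff replicate 2 (0.0533).

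Igf1, Hgf and Fgf2 were lower in LPS than in Ctrl without overlap, and none of them was called. Igf1 was at 1451 and 1068 normalized counts in Ctrl and 396 and 565 in LPS, against 556 and 1091 in Eff and 172 and 429 in LPSEff. The log2 fold changes of Igf1 with stimulation were -1.39 (95% interval -2.46 to -0.33, adjusted p = 0.0635) and -1.52 (-2.58 to -0.45, adjusted p = 0.0540). Both lie close to the threshold, and each was called in 9 of 20 alternatives. Single libraries turned a call on: without LPSEff replicate 1 or 2, Igf1 was called between LPS and Ctrl (adjusted p = 0.0295 and 0.0301), and without LPSEff replicate 2 also between LPSEff and Eff (0.0202). Between efferocytic and naïve BMDMs the samples of Igf1 overlapped.

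Hgf, the ligand of the receptor Met, was at 352 and 450 normalized counts in Ctrl and 221 and 320 in LPS, against 407 and 566 in Eff and 253 and 333 in LPSEff. Its log2 fold changes of -0.58 (95% interval -1.21 to 0.05, adjusted p = 0.173) and -0.72 (-1.35 to -0.09, adjusted p = 0.106) were the smallest in size among the members whose groups did not overlap in both comparisons. Met itself moved the other way. It was at 825 and 1162 in Ctrl and 5056 and 5922 in LPS, against 1162 and 1581 in Eff and 7441 and 9367 in LPSEff, with log2 fold changes of 2.48 (adjusted p = 0.000388) and 2.62 (adjusted p = 0.000294) under all alternatives.

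Fgf2, a heparin-binding ligand, had few reads, between 5 and 41 per sample. Its levels were 20.9 and 16.2 normalized counts in Ctrl and 6.47 and 9.14 in LPS, against 14.0 and 28.9 in Eff and 13.5 and 25.4 in LPSEff. LPS was thus the lowest group, and the other 3 overlapped. The log2 fold change was -1.16 (95% interval -2.39 to 0.07, adjusted p = 0.164) between LPS and Ctrl and -0.12 (-1.35 to 1.11, adjusted p = 0.911) between LPSEff and Eff. Fgf2 overlaps Nudt6 on the opposite strand, which was at 8.12 to 26.8 normalized counts, and the part of overlapping reads in Fgf2 was not tested.

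**Figure D3:**
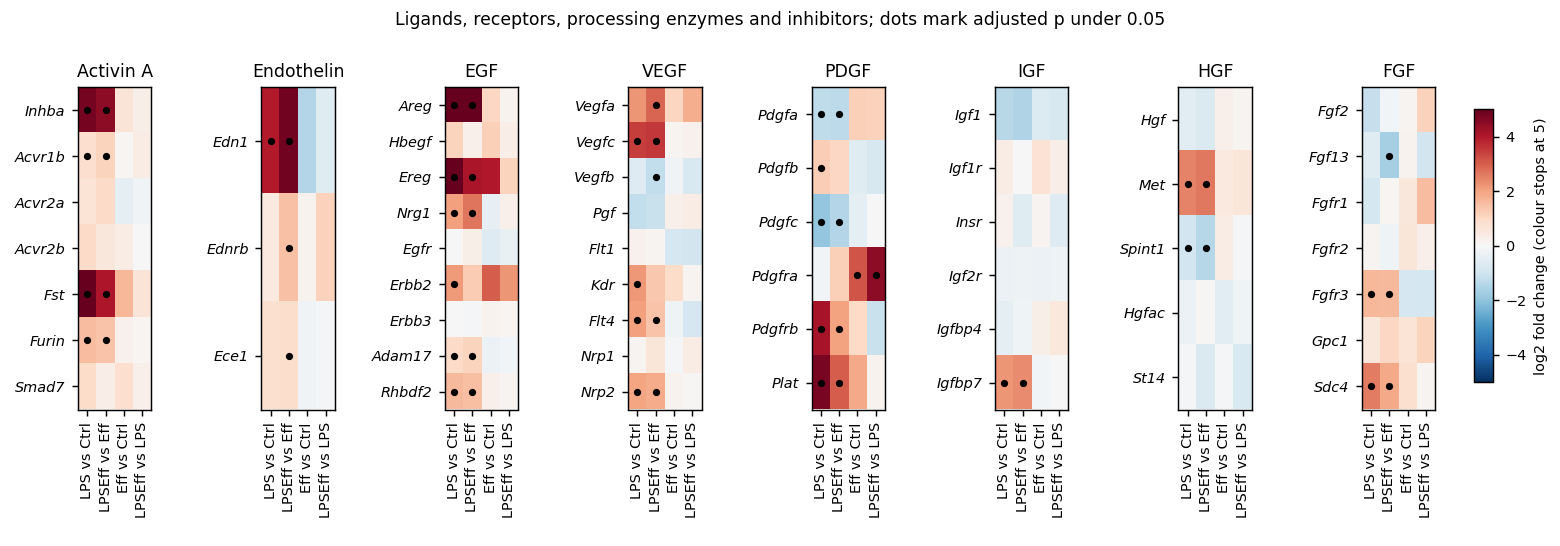
Log2 fold changes (colour, which stops at 5 in size) of each growth factor system in 4 comparisons; rows are ligands, receptors, enzymes and inhibitors picked from the gene lists for display, and dots mark an adjusted p under 0.05. Most dots fall under LPS vs Ctrl and LPSEff vs Eff, and among the genes drawn only Pdgfra carries dots under Eff vs Ctrl and LPSEff vs LPS.

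Per kilobase of exon the order of the 10 changed with the stimulus. In Ctrl, Inhba led with 168 normalized counts per kilobase, followed by Igf1 (123), Pdgfa (60.6), Pdgfb (38.8), Hgf (37.6), Hbegf (19.5), Vegfa (19.1), Edn1 (7.76), Fgf2 (2.72) and Areg (0.473). Pdgfb and Hgf overlapped in their samples, as did Hbegf, Vegfa and Edn1 with their neighbours in that order. In LPS, Inhba stood at 4638 per kilobase, and Edn1 (128), Vegfa (105), Areg (102) and Pdgfb (85.4) came next with samples that overlapped from neighbour to neighbour. In Eff the leaders were Inhba (260) and Pdgfa (144), the latter overlapping with Igf1 (80.5). In LPSEff, Inhba (5741) was followed by Vegfa (301), which stood clear of Areg (94.0) and Edn1 (84.2), and Fgf2 (2.84) was last.

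Without stimulation, Eff against Ctrl gave 0 calls among the 10 growth factors by limma at an adjusted p under 0.05, beside 0.251% of all genes tested. At an unadjusted p under 0.05 there were 4 (Pdgfa, Edn1, Inhba and Hbegf), beside 6.13% of all genes. There edgeR called 0 members, beside 14 of all 16309 genes, and DESeq2 called 1 (Pdgfa), beside 207. Samples of Eff and Ctrl did not overlap for 6 of the 10, beside 34.1% of all genes, with Vegfa, Hbegf, Pdgfa and Inhba higher and Pdgfb and Edn1 lower. Eff vs Ctrl and LPSEff vs LPS together use the same 8 samples as the comparisons of stimulation. Under stimulation, limma called 0 of 10 between LPSEff and LPS, beside 0.773% of all genes. At an unadjusted p under 0.05 there was 1 (Pdgfa), beside 10.3% of all genes. There edgeR called 0 members, beside 126 of all 16309 genes, and DESeq2 called 1 (Pdgfa), beside 368. There, 4 of 10 did not overlap, beside 36.3% of all genes, with Pdgfa, Inhba and Fgf2 higher and Pdgfb lower. Whether the response to LPS/IFNγ differed between naïve and efferocytic BMDMs was tested as an interaction. By limma it was called for 0 of 10, as for 0% of all genes, and 0 members and 311 genes had an unadjusted p under 0.05, with 0 members called by edgeR or DESeq2.

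Fibroblast markers moved with co-culture. Of the 22 tested, 8 were called higher in Eff than in Ctrl, beside a background of 0.215% higher and 0.0368% lower, and 10 higher in LPSEff than in LPS, beside 0.730% higher and 0.0429% lower. Under other settings the first count ran from 2 to 13 and the second from 10 to 13. Without Eff replicate 2 the first count was 0, without Ctrl replicate 1 it was 2, and without Ctrl replicate 2 or either LPSEff replicate it was 3; the second was 4 and 3 without LPS replicate 1 or 2, and 0 and 1 without LPSEff replicate 1 or 2. In both comparisons 19 of the 25 listed markers, 22 of them tested, were higher without overlap. Of all genes tested, 34.1% and 36.3% did not overlap, counting both directions. The most abundant in Eff were collagen genes and a matrix protein. Col1a2 was at 7.62 and 39.9 normalized counts in Ctrl and 28.5 and 83.3 in LPS, against 582 and 1107 in Eff and 1913 and 1369 in LPSEff. Col6a3 stood at 605 and 1020 in Eff and 1514 and 1163 in LPSEff, against at most 17.3 in naïve samples. Aebp1 stood at 293 and 520 in Eff and 1288 and 866 in LPSEff, against at most 20.3. The part of fibroblast RNA in the levels of Pdgfa, Hbegf, Vegfa, Fgf2 and Pdgfra was not tested. In these bulk samples, more transcript per cell and more cells that carry it cannot be told apart.

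**Figure D4:**
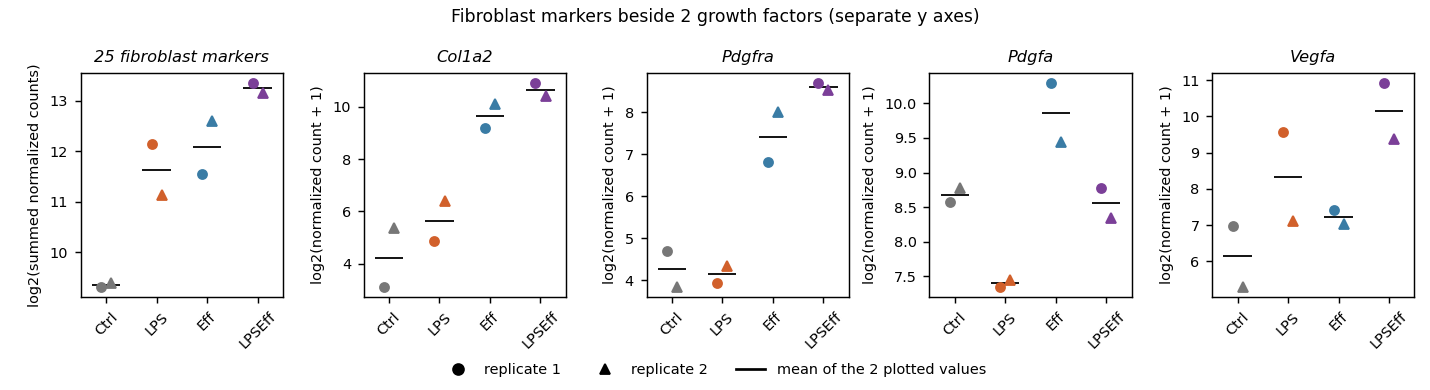
Summed normalized counts of 25 fibroblast markers (log2) beside Col1a2, Pdgfra, Pdgfa and Vegfa as log2(normalized count + 1) in each sample (circles, replicate 1; triangles, replicate 2; bars, mean of the 2 plotted values; y axes differ). Col1a2 and Pdgfra are high in all 4 efferocytic samples. Pdgfa is higher in Eff than in Ctrl and in LPSEff than in LPS, and its LPSEff and Ctrl samples overlap. Vegfa is higher in both Eff samples than in both Ctrl samples and overlaps between LPS and LPSEff. The Vegfa difference between Eff and Ctrl was not called (log2 fold change 1.09, 95% interval -0.88 to 3.06, limma adjusted p = 0.999). Nor were those of Pdgfa between efferocytic and naïve BMDMs called by limma.

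The gene lists around the 10 members are given as counts, to be read beside the 24.0% of all genes called in LPS vs Ctrl and the 19.7% called in LPSEff vs Eff. Of 12 tested relatives of the ligands (of 24 listed), 3 were higher and 1 lower in LPS than in Ctrl, 3 were higher and 3 lower in LPSEff than in Eff, and 0 were called in either comparison of efferocytic with naïve BMDMs. Of 27 receptors and coreceptors (of 30), 9 and 8 were higher with stimulation and 0 lower, and 1 was higher with co-culture in each context, which was Pdgfra. Sdc4, a heparan sulfate coreceptor of FGF2, was among them, at 600 and 611 normalized counts in Ctrl and 3699 and 3477 in LPS (log2 fold change 2.56, adjusted p = 0.000678). Of 17 processing enzymes (of 19), 5 and 6 were higher with stimulation and 0 lower. Htra1, a secreted serine protease, was at 17.1 and 18.5 in Ctrl and 47.9 and 79.2 in LPS (log2 fold change 1.73, adjusted p = 0.0103), a call lost without Ctrl replicate 1 (0.0565) or LPS replicate 2 (0.0634).

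Of 19 tested binding proteins and inhibitors (of 24), 4 were higher and 2 lower in LPS, 5 were higher and 2 lower in LPSEff than in Eff, and 2 were higher in LPSEff than in LPS. Thbs1, thrombospondin-1, a matrix protein known to activate latent TGFβ, was the most abundant of them. It was at 1291 and 939 normalized counts in Ctrl and 20342 and 4334 in LPS, against 10665 and 4853 in Eff and 49191 and 31439 in LPSEff. Both samples of every other group lay above those of Ctrl, and both LPSEff samples lay above both LPS samples. Thbs1 was called in neither comparison of efferocytic with naïve BMDMs, and the part of fibroblast RNA in its level was not tested. The log2 fold changes with stimulation were 3.09 (adjusted p = 0.0125) and 2.45 (adjusted p = 0.0365). The naïve call was lost without Ctrl replicate 1 (0.0516) or 2 (0.0785), and the efferocytic call without either Ctrl replicate (0.0590 and 0.0603), Eff replicate (0.0548 and 0.188) or LPSEff replicate (0.172 and 0.0757), and also with edgeR (0.0520), quantile normalization (0.171) and equal totals (0.0660).

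The 2 genes called between LPSEff and LPS were Lrig1 and Igfbp6. Lrig1, an inhibitor of EGF receptor family signalling, was at 53.3 and 39.9 normalized counts in Ctrl and 46.6 and 71.1 in LPS, against 94.6 and 147 in Eff and 426 and 396 in LPSEff. Its log2 fold change was 2.81 (adjusted p = 0.0150), lost without LPSEff replicate 1 (0.151) or 2 (0.142). Igfbp6, a binding protein of insulin-like growth factors, had 2 and 0 reads in Ctrl and 0 in both LPS samples. It had 32 and 229 reads in Eff and 180 and 134 in LPSEff, the latter 143 and 170 normalized counts. Its log2 fold change between LPSEff and LPS was 7.29 (adjusted p = 0.0241). This call was lost without LPS replicate 1 or 2 or LPSEff replicate 1 or 2, and with edgeR (0.0679). How far fibroblast RNA contributed to the levels of Lrig1 and Igfbp6 was not tested. Of 19 genes known as targets of these signals, 6 were higher and 7 lower in LPS than in Ctrl, 6 were higher and 6 lower in LPSEff than in Eff, and 0 were called with co-culture.

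The candidates were 9824 other protein-coding genes that averaged 50 normalized counts or more. The closest companion of each member over the 8 samples was sought by Pearson's r on the log2 scale, as a description only, since all values share the same libraries. Inhba ran closest with Mmp14, a membrane-bound metalloproteinase (r = 0.999), and 600 genes had an r above 0.95 with it. Edn1 ran with Adora2a, an adenosine receptor (0.993, with 408 such genes), and Areg with Slc23a2, a vitamin C transporter (0.993, with 320). Fewer genes passed this r with the other members. They numbered 85 for Hgf (closest, Mmgt2, 0.992), 41 for Igf1 (Rcan3, 0.984), 18 for Vegfa (Ak4, 0.976) and 16 for Pdgfa (Atf7, 0.994). Hbegf had 4 (Dvl3, 0.971), Fgf2 3 (Lzts2, 0.965) and Pdgfb 2 (Mvb12a, 0.978). Ak4, a mitochondrial adenylate kinase, shared with Vegfa the high level in LPSEff replicate 1, with 801 normalized counts there against 259 in LPSEff replicate 2.

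The members lie on 7 chromosomes of GRCm39, the build to which the reads were mapped. Inhba is at chr13:16186373-16206206 and Edn1 on the same chromosome at chr13:42446301-42461466. Chromosome 5 holds Areg (chr5:91287451-91296291), Hgf (chr5:16758041-16828178) and Pdgfa (chr5:138961758-138983435). Vegfa is at chr17:46327919-46343309, Pdgfb at chr15:79880009-79899181, Igf1 at chr10:87693642-87772904 and Fgf2 at chr3:37402473-37464257, and Hbegf is on chromosome 18.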

How the data were processed

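The authors depleted rRNA, trimmed reads (cutadapt), filtered rRNA (bowtie2), aligned the rest to mm39 (STAR), counted genes (htseq-count) and deposited normalized counts, a signal of reads divided by a size factor; their tool versions and annotation release are not given in the sources used here. All values were whole multiples of 1 read (tolerance 0.01 reads), and these recovered reads were used for count tests. Names, exon lengths and positions came from GENCODE release 39 (GRCm39), which named 54749 of 55359 genes. limma (3.58.1, R 4.3.3) with a trend was fitted to log2(normalized count + 1) of 16309 genes in all 8 samples, with Benjamini-Hochberg adjustment over all genes. A fold change on this scale understates that of low genes. Alternatives were edgeR (4.0.16), DESeq2 (1.42.0), other pseudocounts, filters and scalings, the replicate number as a block, and leaving out each sample. The fit was tested on simulated data. The members, the gene lists for other ligands, receptors, enzymes, inhibitors, targets and cell types, and the promoters shown were chosen with earlier results of these data known. Named were all members, up to 2 called genes with the largest change per pathway list and comparison, the closest gene by correlation, and the 3 fibroblast markers highest in Eff. A gene that this rule names is not reported here. Lox, Cd247, Lck, the Cd3 genes, Ccr7, 6330403L08Rik and Nudt6 were added after values had been seen. Depth limits precision most in Ctrl replicate 1.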

Additional observations from a re-analysis of the deposited data

How the results depend on the processing

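No growth factor changed the direction of a called difference, and Areg, Inhba and Edn1 were called with LPS/IFNγ under all alternatives in both contexts. The interaction gave 0 calls of members under all. With DESeq2, Eff vs Ctrl gave 1 member (from 0) and LPSEff vs LPS 1, and the pathway lists gave 6 (from 1) and 6 (from 3). Over all genes, DESeq2 called 207 (from 41) and 368 (from 126). For Eff vs Ctrl the lists gave 4 without a filter on low values, and 0 with a mean of at least 50, with only the groups compared, and with edgeR. Leaving out 1 sample gave 3 to 6 members in LPS vs Ctrl (3 without Ctrl replicate 1 or LPS replicate 1) and 3 to 6 in LPSEff vs Eff (3 without Eff replicate 1), and 0 to 0 in the other comparisons. The lists then gave 28 to 36, 19 to 45, 0 to 2 and 0 to 3. Rescaling to equal totals shifted the median gene by -0.40 (LPS vs Ctrl) and -0.44 (LPSEff vs Eff) and left 1420 of 5735 and 1216 of 5578 calls higher, against 2015 of 3910 and 1753 of 3213. The cause of these changes was not tested.

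Deviations of same-numbered samples correlated in all 6 pairs of groups (r 0.404 to 0.595), which is a hint from the data and not from the design, and 3829 genes differed between the numbers. With the replicate block, limma called 9 members in LPS vs Ctrl (the 5 and Igf1, Hgf, Vegfa and Hbegf), 8 in LPSEff vs Eff (the 5 and Igf1, Hgf and Pdgfb), 1 in Eff vs Ctrl (Pdgfa) and 2 in LPSEff vs LPS (Vegfa and Pdgfa); edgeR with the block gave 9, 8, 1 and 2, and DESeq2 with it 9, 8, 4 and 1, both added after the data were seen. The block moved the pathway lists to 10, 10 and 14 in Eff vs Ctrl (limma, edgeR, DESeq2), to 17, 20 and 18 in LPSEff vs LPS, to 58, 60 and 54 in LPSEff vs Eff, and to 1 in the interaction by DESeq2. Fibroblast markers called with the block numbered 15 in Eff vs Ctrl and 13 to 15 in LPSEff vs LPS. Over all genes, the block raised the limma calls to 6717, 6033, 436 and 1137. With the block, edgeR called 6663, 6314, 429 and 1233 of all genes, and DESeq2 5615, 5290, 515 and 1072.

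Depth limits Areg, Edn1 and Fgf2 most, which rest on 0 to 11 reads in Ctrl replicate 1.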

Other observations

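Vegfa was higher in replicate 1 than in replicate 2 of all 4 groups, by 1.69 (Ctrl), 2.48 (LPS), 0.37 (Eff) and 1.54 (LPSEff) on the log2 scale, which holds for 14.7% of genes tested. Hgf was higher in replicate 2 of all 4 groups, by 0.35 to 0.53, as were 29.1% of genes. What the replicate numbers share is not stated, and the cause was not tested.

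Markers of other blood cells also moved with LPS/IFNγ, not all in the same direction. The 7 dendritic cell markers summed to 8618 and 16379 normalized counts in LPS against 2156 and 2704 in Ctrl, and to 7038 and 6941 in LPSEff against 1454 and 1789 in Eff, most of it Ccr7. The 8 neutrophil markers summed to 723 to 2647, the 7 mast cell and basophil markers to 214 to 1009, and the 7 T-cell and innate lymphoid markers to 57.1 to 329.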
